A study of Mus musculus with 6 samples.

Results

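The ADAMTS proteases, the matrix metalloproteinases (MMPs) and their inhibitors, the TIMPs and Reck, were followed in As4.1 cells under vehicle, hydrogen peroxide and interleukin. Members were all probe sets that the array annotation gives to a single gene whose symbol starts with Adamts, is Mmp followed by digits (Mmp1a and Mmp1b included), is Timp1 to Timp4, or is Reck. The rule found 43 genes, measured by 79 of the 45101 probe sets of the array, among 18193 genes with a probe set of their own. They comprised 28 probe sets of 15 Adamts genes, 8 of 5 Adamtsl genes, 29 of 18 Mmp genes, 13 of the 4 Timp genes and 1 of Reck.

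As4.1 is a clonal line from a mouse kidney tumour that is used as a model of renin-producing cells. The 3 groups were cells given vehicle, the oxidant hydrogen peroxide or interleukin, and which interleukin it was, its dose and its duration are not stated in the labels. Each group held 2 separately grown cultures with 1 Affymetrix mouse array each, 6 arrays in all, and no genetic change between groups is stated. The pericyte and renin-lineage markers Pdgfrb, Tbx18 and Foxd1 were measured at signals of 7956 to 15399, 2342 to 2987 and 1001 to 2313 over the 6 arrays, whereas Myh11, Rgs5, Des, Cnn1 and Mcam lay below the signal filter described next.

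Matrix proteases of these families are secreted or membrane-bound zinc enzymes that are made as inactive proenzymes. The MMPs cut collagens, basement membrane proteins and many cell surface proteins, the ADAMTS enzymes cut proteoglycans and trim procollagens, and the ADAMTS-like proteins share the ancillary domains but lack the protease. The TIMPs bind the active site of these enzymes, and Reck is a membrane-anchored inhibitor of several MMPs.

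Signals are MAS5 values, one brightness per probe set on a linear scale, and each array had the same trimmed mean of 1500.01. A probe set was tested when the mean of its log2 signal over the 6 arrays reached the median of all probe sets, which means a geometric mean signal of at least 193.7. Of the members, 39 probe sets of 23 genes were tested and 40 lay below. Groups were compared with limma over all 22519 tested probe sets, and a probe set is called when its Benjamini-Hochberg adjusted p is below 0.05. Fold changes are ratios of geometric means, errors of log2 changes are moderated standard errors (SE), and levels are means ± SD (n = 2 arrays per group throughout). No level is set against that of another probe set, since probe sets differ in brightness for the same amount of RNA.

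Under interleukin, both inhibitors and proteases were called in each direction. Among the inhibitors Timp1 and Reck rose and most probe sets of Timp2 and Timp3 fell. Among the proteases Adamts3, Adamts4, Adamts5 and Mmp11 rose and 1 probe set of Mmp2 fell. Across the 3 comparisons 18 of the 39 tested probe sets were called at least once, beside 20.6% of all probe sets tested. With interleukin against vehicle 16 of the 39 were called, or 41.0%, beside 16.1% of all probe sets tested. Of them 7 were higher and 9 lower, beside 7.58% and 8.52% of all probe sets, and 8 of the 9 lower ones belonged to Timp2 and Timp3. The 7 higher ones include 2 of Adamts5 that reached the filter on signal only through their interleukin arrays. With no filter 14 of the 79 members were called, 7 higher and 7 lower, beside 5.98% of 45037 probe sets. The median log2 change over the 39 was 0.0477 and that of all tested probe sets was -0.0152. Both interleukin arrays lay above both vehicle arrays for 15 of the 39 (27.6% of all probe sets tested) and below them for 12 (31.4% of all). In cultures measured in bulk, fewer cells of a kind and less RNA per cell cannot be told apart. Counted by the probe set of highest mean signal per gene, 6 of 23 genes rose (Adamts3, Adamts4, Adamts5, Mmp11, Reck and Timp1), 1 fell (Timp2) and 16 did not pass. The 16 include Timp3 and Mmp2, whose probe set of highest mean signal did not pass although lower calls were made on others. The share of all genes counted in this way is not given here. Without vehicle array 1 or without vehicle array 2 the count of called members was 10 each time, 4 higher and 6 lower, and it was also 10, with 5 higher and 5 lower, when the variance was modelled with no trend on signal.

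Under hydrogen peroxide the called members were nearly all lower. Of the 39 tested probe sets 11 were called, or 28.2%, beside 5.69% of all probe sets. Only Reck was higher (3.05% of all probe sets were called higher), and the 10 lower ones (2.65% of all) were 4 probe sets of Timp2, 3 of Timp3 and 1 each of Adamts3, Adamts9 and Mmp2. The median log2 change over the 39 was -0.261, and over all tested probe sets it was 0.0159. Both hydrogen peroxide arrays lay above both vehicle arrays for 6 of the 39 (29.8% of all probe sets tested) and below them for 22 (25.6% of all). Over all probe sets 686 were called higher and 596 lower, and after centring on the 75th percentile 602 and 879, while the members stayed at 1 and 10. These calls depend on the variance model and on single arrays. With no trend on signal limma called 0 of the 39 members (17 at an unadjusted p below 0.05), and with no filter on signal 7. The count was 2 without vehicle array 1 and without vehicle array 2, 5 without hydrogen peroxide array 1 and 7 without hydrogen peroxide array 2. By gene, 1 of 23 rose (Reck), 3 fell (Adamts3, Adamts9 and Timp2) and 19 did not pass. Timp3 and Mmp2 are again among those that did not pass, by their probe set of highest mean signal.

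**Figure D1:**
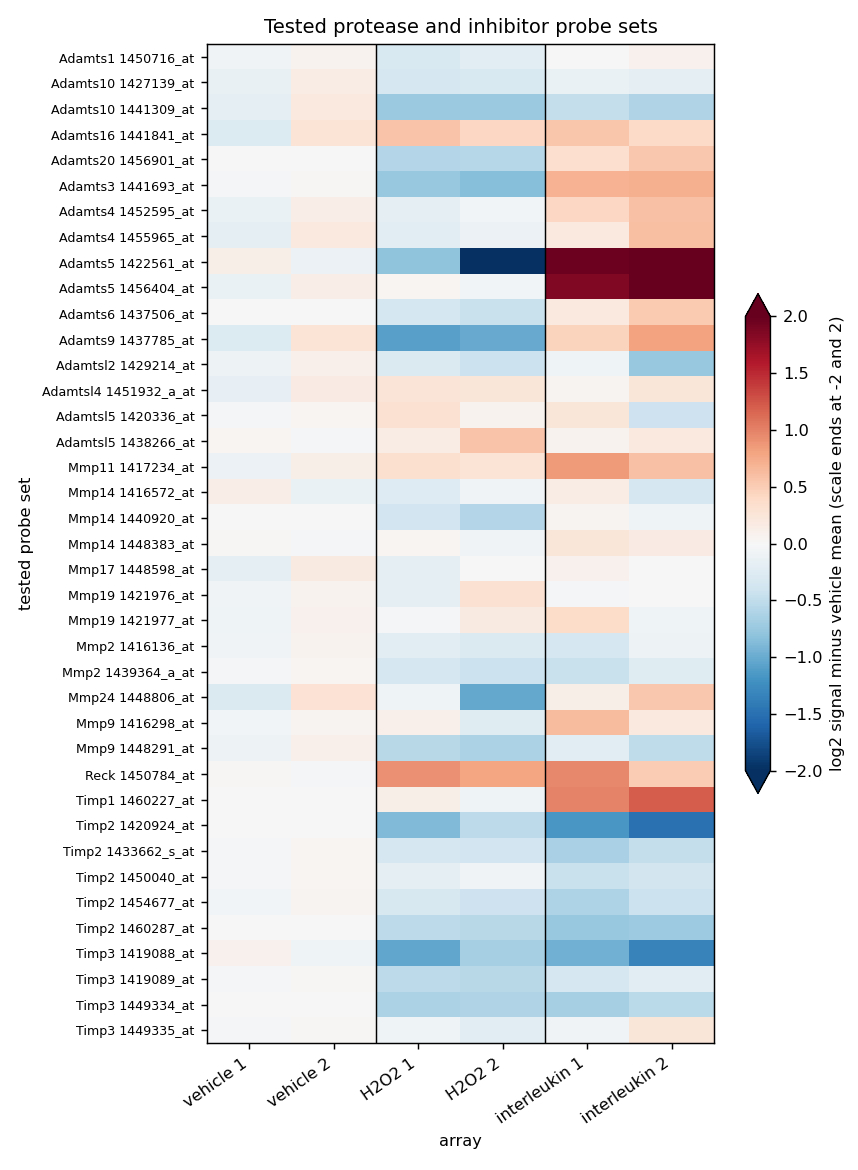
Log2 signal on each of the 6 arrays (columns) minus the mean of the 2 vehicle arrays, for the 39 tested probe sets (rows); red is higher, blue lower, and the colour scale ends at -2 and 2. The Timp2 rows are blue on all 4 treated arrays, Timp1 is red on both interleukin arrays, and Adamts5 goes past the end of the scale.

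Timp1, a secreted inhibitor of most MMPs that cytokines are known to induce, gave signals of 8476 and 8479 with vehicle, 9147 and 7989 with hydrogen peroxide and 16908 and 19538 with interleukin. The interleukin arrays lay above all others, and the hydrogen peroxide arrays lay on both sides of the vehicle arrays. The log2 change was 1.10 ± 0.11 (SE) with interleukin (2.14-fold, adjusted p = 8.74e-05), and 0.01 ± 0.11 with hydrogen peroxide (adjusted p = 0.964). The direct difference between the treatments was 1.09 ± 0.11 (adjusted p = 0.000118). The interleukin call and the direct call held in all 15 alternative settings run.

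Reck gave 1724 and 1669 with vehicle, 3211 and 2921 with hydrogen peroxide and 3298 and 2415 with interleukin. Every treated array lay above both vehicle arrays, and the treated groups overlapped. Reck rose 1.66-fold with interleukin (adjusted p = 0.0108) and 1.81-fold with hydrogen peroxide (adjusted p = 0.0132), and the treatments differed by -0.12 ± 0.16 (log2, interleukin minus hydrogen peroxide, adjusted p = 0.708). The interleukin call was lost without vehicle array 1 (adjusted p = 0.0613), vehicle array 2 (0.0768) or interleukin array 1 (0.0569), and with no trend on signal (0.0631). That with hydrogen peroxide was lost without vehicle array 1 (0.0848), vehicle array 2 (0.103) or hydrogen peroxide array 1 (0.0896), and with no trend (0.107).

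Timp2 inhibits MMPs and, with Mmp14, also takes part in the activation of pro-Mmp2. It was measured by 6 probe sets, of which 5 were tested. The other, below the filter, read 45.2 and 66.4 with vehicle, 23.6 and 12.4 with hydrogen peroxide and 14.3 and 61.7 with interleukin. Probe set 1460287_at gave 44887 and 44248 with vehicle, 30967 and 30451 with hydrogen peroxide and 26220.0 and 26893 with interleukin. The 3 groups did not overlap, with vehicle highest and interleukin lowest. It fell by 0.75 ± 0.07 (log2) with interleukin (adjusted p = 6.57e-05) and by 0.54 ± 0.07 with hydrogen peroxide (adjusted p = 0.00244).

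Probe set 1420924_at showed the largest Timp2 difference of the 5. It read 12741 and 12871 with vehicle, 6941 and 8890.4 with hydrogen peroxide and 5716 and 4576 with interleukin. It fell by 1.32 ± 0.14 with interleukin (adjusted p = 0.00016) and by 0.70 ± 0.14 with hydrogen peroxide (adjusted p = 0.0173). It was also the only Timp2 probe set called between the treatments, lower with interleukin by 0.62 (adjusted p = 0.0201), a call lost without hydrogen peroxide array 2 (0.172) or interleukin array 2 (0.115) and with no trend on signal (0.135).

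The other tested Timp2 probe sets had smaller differences in the same direction. Probe set 1433662_s_at gave 20541 and 21513 with vehicle, 16566 and 16206 with hydrogen peroxide and 13413 and 15142 with interleukin. Probe set 1454677_at gave 32620 and 34835 with vehicle, 26985 and 25266 with hydrogen peroxide and 21922 and 24999.5 with interleukin. Probe set 1450040_at gave 8134 and 8552 with vehicle, 7329.6 and 7984 with hydrogen peroxide and 6129 and 6482 with interleukin. With interleukin they fell by 0.56, 0.53 and 0.40 in this order (log2, adjusted p = 0.00198, 0.00266 and 0.02). With hydrogen peroxide the first pair had -0.36 and -0.37 and were called (adjusted p = 0.0409 and 0.0359), and 1450040_at had -0.12 and was not (adjusted p = 0.504). All 5 had both arrays of either treatment below both vehicle arrays. Of these Timp2 calls, those of 1420924_at, 1433662_s_at and 1460287_at with interleukin held in every alternative in which they were tested. That of 1454677_at was lost with no trend on signal (adjusted p = 0.0629). The call of 1450040_at was lost without vehicle array 1 (adjusted p = 0.0906), vehicle array 2 (0.153) or interleukin array 1 (0.0711), and with no trend (0.0912). With hydrogen peroxide 1420924_at lost its call without vehicle array 1 (0.107), vehicle array 2 (0.119) or hydrogen peroxide array 1 (0.122), and 1433662_s_at and 1454677_at did so with each of the 4 vehicle and hydrogen peroxide arrays left out in turn, at adjusted p = 0.144 to 0.267 and 0.0994 to 0.255.

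Timp3, which binds to the extracellular matrix and also inhibits ADAM and ADAMTS proteases, had 4 probe sets, all tested, and they did not change alike. Probe set 1419088_at gave 13742 and 12198 with vehicle, 6319 and 8172 with hydrogen peroxide and 6650.3 and 5115 with interleukin, a log2 change of -1.15 ± 0.15 with interleukin (adjusted p = 0.000698) and -0.85 ± 0.15 with hydrogen peroxide (adjusted p = 0.0113). Probe set 1449334_at gave 11628 and 11428, 7475 and 7583, and 7249 and 7918, and fell by 0.61 ± 0.09 in each comparison with vehicle (adjusted p = 0.00183 and 0.00573). In both, all treated arrays lay below the vehicle arrays. Probe set 1419089_at gave 23267 and 24036 with vehicle, 16428 and 16068 with hydrogen peroxide and 18748 and 20468 with interleukin. It fell by 0.54 ± 0.08 with hydrogen peroxide (adjusted p = 0.00528) and by 0.27 ± 0.08 with interleukin (adjusted p = 0.0455), and the difference between the treatments did not pass (0.27 ± 0.08, adjusted p = 0.0674). Probe set 1449335_at gave 25855 and 26687 with vehicle, 24694 and 22770.3 with hydrogen peroxide and 25092 and 31006 with interleukin. Its hydrogen peroxide arrays were the lowest and the other groups overlapped, and it passed in neither comparison with vehicle (adjusted p = 0.614 and 0.433).

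The interleukin call of 1419089_at was lost in 10 of 15 alternatives, namely quantile normalization (0.0504), 75th percentile centring (0.0611), no filter (0.107), no trend on signal (0.189), the fit on 4 arrays (0.0615), and without vehicle array 1 (0.162), vehicle array 2 (0.24), hydrogen peroxide array 1 (0.0637) or 2 (0.064), or interleukin array 1 (0.163). With hydrogen peroxide, leaving out vehicle array 1 or 2 gave adjusted p = 0.103 and 0.0578 for 1419088_at, 0.052 and 0.0658 for 1419089_at, and 0.0678 and 0.0587 for 1449334_at, and 1419088_at had 0.0821 without hydrogen peroxide array 1. Timp4, a TIMP of narrow tissue distribution, had 2 probe sets, both below the filter. Probe set 1423405_at read 16.1 and 19.7 with vehicle, 71.8 and 57.4 with hydrogen peroxide and 31 and 86.3 with interleukin. Probe set 1450974_at read 21.6 and 17.1, 171.6 and 132.3, and 26.1 and 234.9 in the same order. On both, all treated arrays lay above the vehicle arrays, and in the fit with no filter neither was called (adjusted p = 0.419 and 0.218 with hydrogen peroxide, 0.437 and 0.344 with interleukin). Interleukin array 2 had a lower quartile of all signals of 69.2, against 48 to 54.1 on the other 5 arrays.

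Beside these TIMP values, a measure of RNA integrity and labelling differed between the groups. Beta-actin control probe sets had 3'-to-5' signal ratios of 1.22 and 1.26 on the vehicle arrays, 1.35 and 1.32 with hydrogen peroxide and 1.46 and 1.55 with interleukin, while the Gapdh ratio was 0.825 to 0.873 over all arrays. The Tfrc ratio was 1.85 and 2.14 with vehicle, 3.54 and 2.3 with hydrogen peroxide and 3.05 and 3.95 with interleukin. The Pcx ratio was 1.66 and 1.59, 2.89 and 2.03, and 2.3 and 2.46 in the same order. The positions of the Timp2 and Timp3 probe sets along their transcripts are not used here, and the part of these ratios in the differences between probe sets of a gene was not tested.

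**Figure D2:**
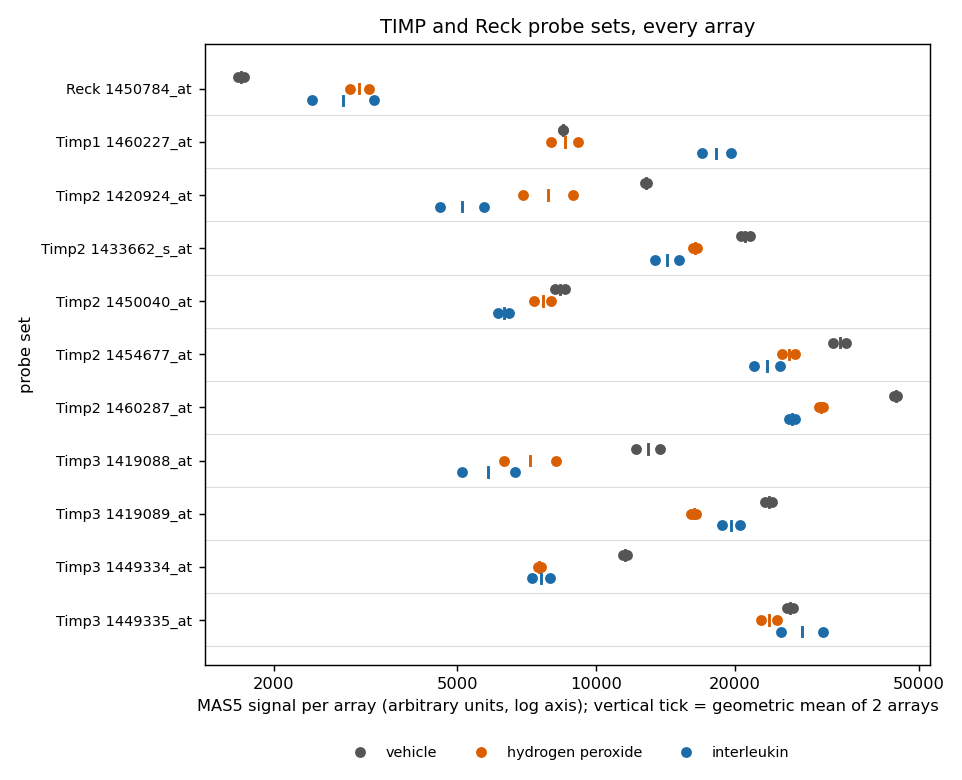
Signal on every array (points, log axis) and geometric mean of the 2 arrays of a group (vertical ticks) for the 11 tested probe sets of Reck and the Timp genes; grey is vehicle, orange hydrogen peroxide and blue interleukin. Timp1 is at 16908 and 19538 with interleukin against 8476 and 8479 with vehicle, all 5 Timp2 probe sets have their blue points furthest left, and Timp3 1449335_at has overlapping vehicle and interleukin points.

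Among the 12 tested ADAMTS probe sets 4 rose and 0 fell with interleukin (5 at an unadjusted p below 0.05), beside 7.58% and 8.52% of all probe sets. Of these 4, 2 were Adamts5 probe sets that reached the filter on signal only through their interleukin arrays. The count of 4 is therefore not independent of the filter. With hydrogen peroxide 2 fell and 0 rose (4 at an unadjusted p below 0.05), beside 2.65% and 3.05% of all. Adamts3, which removes the amino-terminal propeptide of procollagens and processes the growth factor Vegfc, gave 4610 and 4744 with vehicle, 2761 and 2590.1 with hydrogen peroxide and 7559 and 7687 with interleukin on probe set 1441693_at. The groups were well apart, with vehicle between the treatments. It rose 1.63-fold with interleukin (log2 0.70 ± 0.11, adjusted p = 0.00149) and fell by 0.81 ± 0.11 with hydrogen peroxide (adjusted p = 0.00274), and interleukin exceeded hydrogen peroxide 2.85-fold (adjusted p = 1.33e-05). The interleukin and direct calls held in all 15 alternatives, and that with hydrogen peroxide was lost only with no trend on signal (adjusted p = 0.0642). The second Adamts3 probe set, below the filter, read 155 and 235 with vehicle, 132 and 115 with hydrogen peroxide and 214 and 298 with interleukin.

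Adamts5, a major aggrecanase that degrades the proteoglycans aggrecan and versican, had 2 tested probe sets, both of which reached the filter on signal only through their interleukin arrays. With no filter their interleukin calls had adjusted p = 0.00836 for 1456404_at and 0.0271 for 1422561_at. On 1456404_at the signals were 157 and 189.8 with vehicle, 177 and 166 with hydrogen peroxide and 620.5 and 687 with interleukin. The interleukin arrays stood above all others, and the other groups overlapped. It rose 3.78-fold (log2 1.92 ± 0.31, adjusted p = 0.00235), and its call held in all 14 alternatives in which it was tested.

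On 1422561_at the signals were 217 and 186 with vehicle, 115 and 45.6 with hydrogen peroxide and 782 and 1017 with interleukin. The rise with interleukin was 4.44-fold (log2 2.15 ± 0.45, adjusted p = 0.00919), and the call was lost on leaving out vehicle array 2 (0.0689) or interleukin array 2 (0.0734). With hydrogen peroxide the log2 change was -1.47 ± 0.45 and did not pass (adjusted p = 0.0837). Over the 14 alternatives it ran from -2.14, without hydrogen peroxide array 1, to -0.80. On 1456404_at the hydrogen peroxide change was -0.01 (adjusted p = 0.989). The vehicle signals of Adamts5 are dim, and adding 32 to every signal gave log2 changes of 1.74 on 1456404_at and 1.99 on 1422561_at, both called. Of the 2 other Adamts5 probe sets, below the filter, 1450658_at read 116 and 106 with vehicle, 87.9 and 107 with hydrogen peroxide and 316 and 266 with interleukin, and 1456969_at read 1.7 to 38.3 on the 6 arrays.

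Adamts4, also an aggrecanase, read 2453 and 2963 with vehicle, 2374 and 2601 with hydrogen peroxide and 3574 and 4067 with interleukin on 1452595_at. Both interleukin arrays were higher than the other 4, and it rose 1.41-fold (adjusted p = 0.0339). That call was lost without vehicle array 1 (adjusted p = 0.254), vehicle array 2 (0.0565) or interleukin array 2 (0.135), with no filter on signal (0.0555) and with no trend on signal (0.0994). A dimmer Adamts4 probe set, 1455965_at, had a log2 difference of 0.40 ± 0.26 that did not pass (adjusted p = 0.339).

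Adamts9, a versican-cleaving protease, read 626 and 904 with vehicle, 355 and 375 with hydrogen peroxide and 1025 and 1317 with interleukin on 1437785_at. The 3 groups did not overlap. With hydrogen peroxide it fell by 1.04 ± 0.23 (log2, adjusted p = 0.0284), a call lost without vehicle array 1 (0.0561), vehicle array 2 (0.245), hydrogen peroxide array 1 (0.116) or 2 (0.0721), with no filter (0.0637) and with no trend on signal (0.11). With interleukin the difference was 0.63 ± 0.23 and did not pass (adjusted p = 0.0957). Adamts9 also had probe sets 1430352_at and 1431399_at, below the filter. The former read 177.7 and 135.5 with vehicle, 48.1 and 74.7 with hydrogen peroxide and 224.4 and 162.2 with interleukin. The latter read 105.9 and 139.8, 76.8 and 96.8, and 55.9 and 238.9 in the same order. On both, hydrogen peroxide lay below vehicle, and the vehicle and interleukin arrays overlapped.

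Adamts20 read 326 and 327 with vehicle, 217 and 218 with hydrogen peroxide and 412 and 472 with interleukin, and passed in neither comparison with vehicle (adjusted p = 0.328 and 0.253). The tested probe sets of Adamts1, Adamts6, Adamts10 and Adamts16 passed in no comparison. The ADAMTS-like genes Adamtsl2, Adamtsl4 and Adamtsl5 had 4 tested probe sets, of which limma called 0 in each of the 3 comparisons (0 at an unadjusted p below 0.05), with log2 differences from -0.42 to 0.15 for interleukin and -0.36 to 0.36 for hydrogen peroxide.

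Adamts7, a protease known to degrade the cartilage protein COMP, lay below the filter because 4 of its 6 signals were dim, and is named after its values were seen. It read 85.2 and 42.7 with vehicle, 7.5 and 31.9 with hydrogen peroxide and 832 and 715 with interleukin. In the fit with no filter on signal, where 5.98% of 45037 probe sets were called with interleukin, it was higher than vehicle by 3.68 ± 0.82 (log2, adjusted p = 0.0269). Adding 32 to every signal gave a fold of 8.58. It was the only 1 of the 40 members below the filter called in that fit with interleukin (6 at an unadjusted p below 0.05). With hydrogen peroxide 0 of the 40 were called (6 at an unadjusted p below 0.05).

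**Figure D3:**
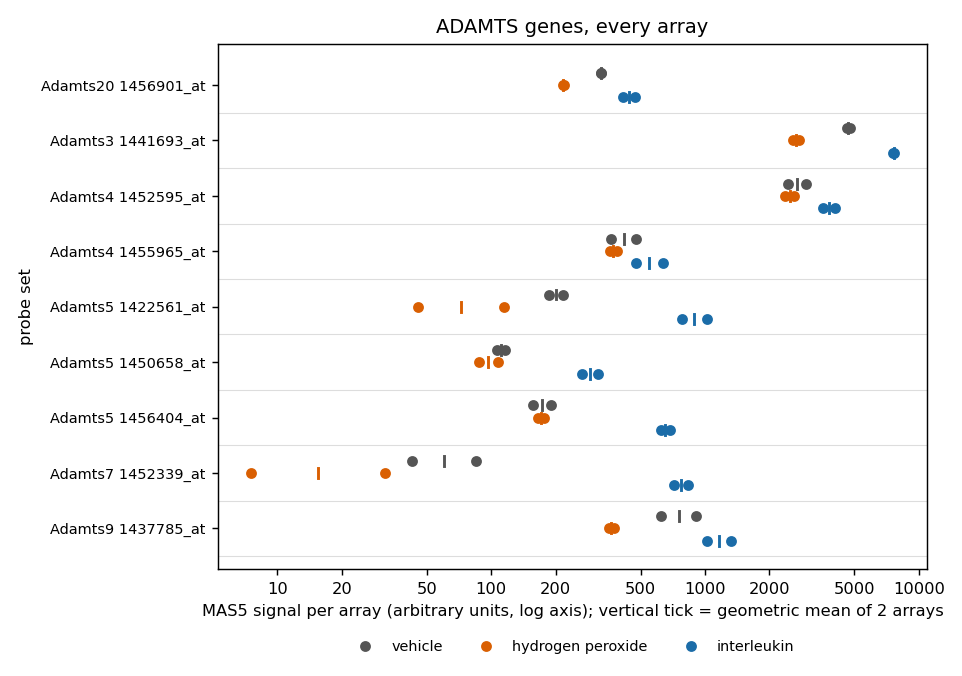
Signal on every array (points, log axis) and geometric mean of the 2 arrays of a group (vertical ticks) for probe sets of 6 ADAMTS genes; grey is vehicle, orange hydrogen peroxide and blue interleukin. The rows are the tested probe sets of these genes with Adamts7 and Adamts5 1450658_at, which were below the filter on signal. The blue points lie to the right in each row drawn, and Adamts3 separates into 3 groups (2590.1 to 2761, 4610 to 4744 and 7559 to 7687). Not drawn are Adamts3 1458143_at, Adamts5 1456969_at, and Adamts9 1430352_at and 1431399_at, all below the filter. On those of Adamts3 and Adamts9 the vehicle and interleukin arrays overlapped, and on that of Adamts5 a hydrogen peroxide array was highest.

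Of 12 tested MMP probe sets of 7 genes, 1 rose and 1 fell with interleukin (16.7% called, beside 16.1% of all probe sets). With hydrogen peroxide 1 fell (8.33%, beside 5.69% of all), and between the treatments limma called 0 (3 at an unadjusted p below 0.05). Mmp11 (stromelysin-3), a secreted MMP that furin activates inside the cell, read 1120 and 1316 with vehicle, 1515 and 1467 with hydrogen peroxide and 2189 and 1831 with interleukin. All interleukin arrays lay above the rest, and it rose 1.65-fold with interleukin (adjusted p = 0.0111). The call was lost without vehicle array 1 (adjusted p = 0.108) or interleukin array 1 (0.0645), and with hydrogen peroxide the log2 difference of 0.30 ± 0.16 did not pass (adjusted p = 0.299).

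Mmp2 (gelatinase A), which degrades type IV collagen and gelatin, read 42005 and 43916 with vehicle, 33976 and 31746 with hydrogen peroxide and 31671 and 36268 with interleukin on 1439364_a_at. Treated arrays lay below both vehicle arrays, and it fell by 0.34 ± 0.08 with interleukin (adjusted p = 0.0195) and by 0.39 ± 0.08 with hydrogen peroxide (adjusted p = 0.0248). The other Mmp2 probe set, 1416136_at, also lay lower on all 4 treated arrays but did not pass (log2 -0.22 and -0.25, adjusted p = 0.124 and 0.136). The interleukin call was lost without vehicle array 1 (0.0806), vehicle array 2 (0.142) or interleukin array 1 (0.0989), and with no filter (0.0657) or no trend (0.15). With hydrogen peroxide it was lost without vehicle array 1 (0.113), vehicle array 2 (0.189), hydrogen peroxide array 1 (0.0749) or 2 (0.118), and with no filter (0.083) or no trend (0.19).

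Mmp14, the membrane-bound activator of pro-Mmp2, passed on none of its 3 probe sets, which gave log2 differences of -0.09, -0.01 and 0.20 with interleukin and -0.16, -0.49 and -0.02 with hydrogen peroxide (SE 0.16, 0.14 and 0.09). Mmp9 (gelatinase B), often induced in inflamed tissue, read 470 and 503 with vehicle, 524 and 413 with hydrogen peroxide and 756 and 557 with interleukin on 1416298_at, a log2 difference of 0.42 ± 0.24 with interleukin (adjusted p = 0.282). Its other probe set 1448291_at pointed the opposite way (-0.36 ± 0.28, adjusted p = 0.423). Mmp17, Mmp19 and Mmp24 did not pass in any comparison.

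The interstitial collagenases, stromelysins and other MMPs of the chromosome 9 gene cluster were dim on every array. Mmp1a, Mmp1b, Mmp3, Mmp7, Mmp8, Mmp10, Mmp12, Mmp13 and Mmp20, which lie together on chromosome 9 between 7272514 and 7699585 (GRCm38.p6), had 9 probe sets and all were below the filter. Their signals ran from 2.9 to 200.1 with a median of 38.5, and the group medians were 36.5 with vehicle, 43.5 with hydrogen peroxide and 36.3 with interleukin. Mmp3 (stromelysin-1) read 118 and 39.9 with vehicle, 96.2 and 70.1 with hydrogen peroxide and 118 and 139 with interleukin, and Mmp13 (collagenase-3) read 2.9 to 60.5 over the 6 arrays. No detection call was used, so these values are not a statement that the genes are silent.

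Among members with a searched promoter, the sequences just upstream of the listed start sites differed in AP-1 and GC box matches between these cluster genes and the tested genes. The TATA box and the NF-kappaB motif occurred in both. The RefSeq promoter table (GRCm38.p6) held 28 of the 43 genes, and the 250 bases before the start were searched on both strands for the AP-1 motif TGANTCA, the cyclic AMP response element TGACGTCA, the GC box GGGCGG, the STAT motif TTCNNNGAA, the TATA box TATAAA and the NF-kappaB motif. Of the 9 cluster genes 8 held an AP-1 motif, 7 a TATA box and 0 a GC box. For Mmp12 the AP-1 match was only in a second entry, 7347124 to 7347373, which lies inside the gene. The entry just before the gene held none. Of the 23 genes with a tested probe set 14 had a listed promoter, of which 0 held an AP-1 motif, 2 a TATA box and 14 a GC box. The other tested genes, among them Adamts4, Adamts5, Mmp2 and Mmp9, were not searched. The windows of Adamts3, Adamts9, Adamts20 and Adamtsl5, tested genes with a GC box, lay inside the full span of the gene. They precede a listed start within it. For Adamts3, on the minus strand, the gene runs to 89883668. The windows of Adamts18, Adamtsl3 and Mmp23, with no tested probe set, also lay inside the gene. Of the 14 searched genes with no tested probe set, the cluster included, 8 held an AP-1 motif, 7 a TATA box and 2 a GC box. All AP-1 matches were in cluster genes, and the GC boxes were outside the cluster, in Adamts18 and Adamtsl3. Among all 32851 promoters listed there, counted by entry and not by gene, 6.75% held the AP-1 motif, 12.4% the TATA box and 32.7% the GC box. The upstream sequences of the inhibitors that changed, of Adamts3 and of Mmp3 and Mmp13 are shown to make this visible, written 5′ to 3′ with the matched motifs in capitals.
Timp1 (chrX:20869916-20870165, plus strand): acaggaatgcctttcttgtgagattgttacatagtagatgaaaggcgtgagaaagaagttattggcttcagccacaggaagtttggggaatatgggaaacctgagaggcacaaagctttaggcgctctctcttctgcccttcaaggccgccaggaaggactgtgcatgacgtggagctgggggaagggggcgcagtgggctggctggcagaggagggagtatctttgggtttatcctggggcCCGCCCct
Timp2 (chr11:118355412-118355661, minus strand): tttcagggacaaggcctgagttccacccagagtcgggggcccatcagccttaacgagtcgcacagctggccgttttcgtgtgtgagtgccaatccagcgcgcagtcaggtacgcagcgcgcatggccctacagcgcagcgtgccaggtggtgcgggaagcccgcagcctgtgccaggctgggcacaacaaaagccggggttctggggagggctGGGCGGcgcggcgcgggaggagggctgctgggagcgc
Timp3 (chr10:86300162-86300411, plus strand): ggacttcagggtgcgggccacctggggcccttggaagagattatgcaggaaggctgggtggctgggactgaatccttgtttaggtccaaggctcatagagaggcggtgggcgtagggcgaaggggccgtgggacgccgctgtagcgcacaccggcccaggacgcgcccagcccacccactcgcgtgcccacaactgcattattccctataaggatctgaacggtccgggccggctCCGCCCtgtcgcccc
Reck (chr4:43875280-43875529, plus strand): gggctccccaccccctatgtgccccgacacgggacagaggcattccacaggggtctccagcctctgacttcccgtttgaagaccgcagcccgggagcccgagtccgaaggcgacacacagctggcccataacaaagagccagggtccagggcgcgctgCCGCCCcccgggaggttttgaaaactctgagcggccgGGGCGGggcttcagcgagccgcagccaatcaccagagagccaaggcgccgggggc
Adamts3 (chr5:89883335-89883584, minus strand): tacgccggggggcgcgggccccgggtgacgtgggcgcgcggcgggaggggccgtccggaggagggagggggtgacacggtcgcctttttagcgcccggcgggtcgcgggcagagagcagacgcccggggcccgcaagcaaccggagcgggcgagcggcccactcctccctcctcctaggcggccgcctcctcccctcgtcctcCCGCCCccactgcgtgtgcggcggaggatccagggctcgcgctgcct
Mmp3 (chr9:7445572-7445821, plus strand): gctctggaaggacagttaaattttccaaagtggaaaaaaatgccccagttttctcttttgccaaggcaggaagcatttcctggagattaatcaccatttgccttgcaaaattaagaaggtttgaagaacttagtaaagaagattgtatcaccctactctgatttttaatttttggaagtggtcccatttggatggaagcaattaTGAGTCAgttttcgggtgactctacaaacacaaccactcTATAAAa
Mmp13 (chr9:7272264-7272513, plus strand): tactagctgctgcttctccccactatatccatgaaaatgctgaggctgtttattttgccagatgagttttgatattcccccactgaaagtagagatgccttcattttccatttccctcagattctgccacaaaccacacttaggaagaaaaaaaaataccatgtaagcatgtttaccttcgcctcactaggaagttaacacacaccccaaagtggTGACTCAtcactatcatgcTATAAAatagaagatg
In these windows Timp1, Timp2, Timp3 and Adamts3 held 1 GC box each and Reck held 2. Mmp3 held the AP-1 match TGAGTCA and Mmp13 the match TGACTCA, each followed by a TATA box. Timp1, which rose with interleukin, and Timp2 and Timp3, with probe sets that fell, thus held the same searched motif. The NF-kappaB motif, which is held by 7.25% of all promoters, was matched for Adamts9, Adamts20 and Mmp12, the STAT motif (7.02%) for Mmp23 only, and the cyclic AMP response element (1.55%) for 0 of the 28 genes. A match is a description of letters, and its absence here says only that these letters are not in this window.

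**Figure D4:**
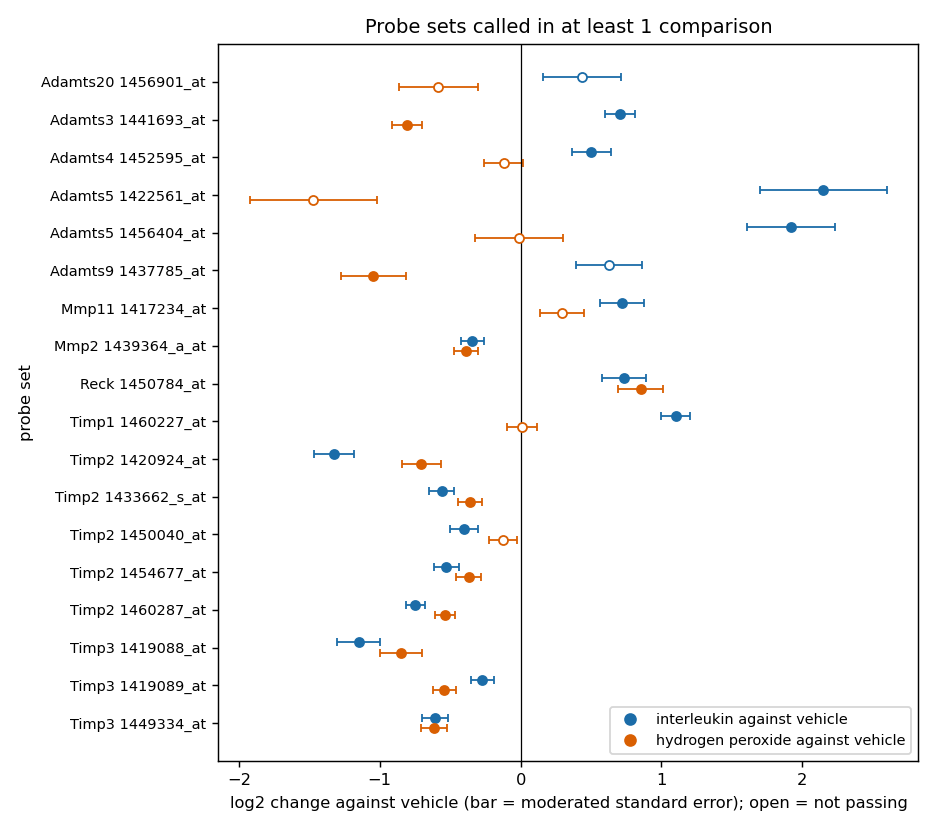
Log2 change against vehicle (points) with the moderated standard error (bars) for the 18 probe sets called in at least 1 of the 3 comparisons; blue is interleukin, orange hydrogen peroxide, and open points did not pass. Timp2, Timp3 and Mmp2 lie left of 0 in both colours, Reck lies right of 0 in both, and Adamts3 lies at 0.70 and -0.81.

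Interleukin and hydrogen peroxide were also compared directly. Of the 39 tested probe sets 8 were called, or 20.5%, beside 8.82% of all probe sets, with 7 higher under interleukin (4.95% of all) and 1 lower (3.87% of all). The median log2 difference over the 39 was 0.159, against -0.0484 for all tested probe sets. Both interleukin arrays lay above both hydrogen peroxide arrays for 20 of the 39 (21.8% of all probe sets tested) and below them for 5 (30% of all). The called higher ones were Timp1 and 6 of the 12 ADAMTS probe sets, namely both of Adamts5 and 1 each of Adamts3, Adamts4, Adamts9 and Adamts20, and the lower one was Timp2 1420924_at. Adamts5 differed by 3.62 ± 0.45 on 1422561_at (adjusted p = 0.000645) and by 1.93 ± 0.31 on 1456404_at (adjusted p = 0.00349), and Adamts9 by 1.67 ± 0.23 (adjusted p = 0.00133). The Adamts5 probe sets passed the filter on signal only through interleukin, the higher group. In the fit with no filter they had adjusted p = 0.00259 for 1422561_at and 0.0127 for 1456404_at. These 3 and the calls of Adamts3 and Timp1 held in every alternative in which they were tested. Adamts4 (log2 0.62, adjusted p = 0.0201) lost its call without hydrogen peroxide array 1 (0.0969) or 2 (0.0685) or interleukin array 2 (0.102), and with no trend on signal (0.0987). Adamts20 (log2 1.02, adjusted p = 0.0478) kept its call in 5 of 14 alternatives. The call was lost with the replicate number as a block (0.0652), with no filter on signal (0.119) and in the fit on the 4 arrays compared. It was also lost with each of the 6 arrays left out in turn. The count was 5 without hydrogen peroxide array 2 or without interleukin array 2. Both comparisons with vehicle share the vehicle arrays, so their values are given side by side and no agreement between them is read.

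Genes that activate or clear these proteases changed in part. The counts of the gene and marker lists below are to be read beside the shares of all tested probe sets. With interleukin 7.58% of these were called higher and 8.52% lower, and with hydrogen peroxide 3.05% and 2.65%. Of 13 tested genes of protease activation and clearance, 3 rose, 2 fell and 8 did not pass with interleukin (median log2 change 0.142). Ctsl, a lysosomal cysteine protease, rose 1.67-fold (adjusted p = 0.00181) and Plat, the tissue plasminogen activator, 1.37-fold (adjusted p = 0.0122), the latter with adjusted p = 0.0874 and 0.0887 without either vehicle array. The secreted serine protease Htra3 fell by 1.21 ± 0.16 and the serine protease-like Prss35 by 1.15 ± 0.15 (log2, adjusted p = 0.000802 and 0.000722). With hydrogen peroxide 1 rose, 2 fell and 10 did not pass (median -0.151). Prss35 fell by 1.58 (adjusted p = 0.000638), whereas the calls of Ctsl (adjusted p = 0.0121) and Htra3 (0.0472) were each lost on leaving out single vehicle or hydrogen peroxide arrays, at adjusted p = 0.0843 to 0.0957 and 0.0684 to 0.235.

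The membrane-bound ADAM proteases, relatives that shed cell surface proteins, had 1 of 7 tested genes called with interleukin, a rise, beside 16.1% of all probe sets. It was Adam15, 1.71-fold (adjusted p = 0.0203, and 0.126 to 0.172 without interleukin array 1 or vehicle array 1). With hydrogen peroxide limma called 0 of 7 (3 at an unadjusted p below 0.05). Of 3 tested inhibitors of matrix proteolysis outside the TIMP family, Serpinb1a, which blocks neutrophil serine proteases, rose 3.24-fold with interleukin (adjusted p = 0.000391). A2m, a general protease trap, fell by 1.47 with hydrogen peroxide (log2, adjusted p = 0.0118, and 0.0602 to 0.104 without vehicle array 1 or 2 or hydrogen peroxide array 1).

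Substrates of the proteases were called in both comparisons with vehicle. Among 9 tested proteoglycans and glycoproteins that ADAMTS and MMP enzymes cut, 4 rose with interleukin and 5 did not pass (median log2 change 0.19), with the small proteoglycan Dcn up 4.02-fold, the glycoprotein Tnc 10.2-fold, the proteoglycan Bgn 1.29-fold and the thrombospondin Thbs2 1.27-fold. Bgn lost its call without vehicle array 1 (adjusted p = 0.0658), and Thbs2 without vehicle array 1 or interleukin array 2 (0.0643 to 0.168). With hydrogen peroxide 1 fell and 8 did not pass (median -0.156): Vcan, the versican that Adamts4, Adamts5 and Adamts9 cut, fell by 1.04 ± 0.14 (adjusted p = 0.00304).

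Of 10 tested collagens and procollagen processing genes, 2 rose and 8 did not pass with interleukin (median 0.0112), beside 16.1% of all probe sets called. With hydrogen peroxide 5 fell and 5 did not pass (median -0.34), beside 5.69% of all probe sets called. Col3a1, a fibrillar collagen, rose 1.53-fold with interleukin (adjusted p = 0.00172) and fell by 0.70 with hydrogen peroxide (adjusted p = 0.00319). Col5a2 rose 1.40-fold with interleukin (adjusted p = 0.00493, and 0.0642 without vehicle array 1). Col1a1 and Col1a2, the chains of type I collagen, fell by 0.74 and 0.58 with hydrogen peroxide (adjusted p = 0.0013 and 0.00327), and Pcolce, an enhancer of procollagen C-proteinase, fell by 0.34 (adjusted p = 0.0331, and 0.0554 to 0.184 with each of the 4 vehicle and hydrogen peroxide arrays left out in turn).

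Transcription factors of the AP-1, ETS, NF-kappaB and RUNX families, which are known to bind protease promoters, had 5 of 15 tested genes risen and 10 not passing with interleukin (median 0.272). Junb rose 2.93-fold, Relb 2.43-fold, Fosl2 1.43-fold and Runx1 by log2 2.03 ± 0.21 (adjusted p = 1.04e-05, 0.000601, 0.00354 and 0.000156). With hydrogen peroxide 4 rose and 11 did not pass (median 0.32): Etv4 rose 3.12-fold (adjusted p = 0.00179), and Fosl1, Runx1 and Etv5 rose 1.57-fold, 1.98-fold and 1.48-fold (adjusted p = 0.0188, 0.0246 and 0.0273). The latter 3 each lost their call on leaving out single vehicle or hydrogen peroxide arrays (adjusted p = 0.0679 to 0.155, 0.0723 to 0.186 and 0.0618 to 0.208). With no trend on signal the hydrogen peroxide calls named in these gene lists were lost (adjusted p = 0.0526 to 0.215), except that of Prss35. Of the interleukin calls named there, those of Adam15 (0.0957), Fosl2 (0.0509), Col5a2 (0.08), Plat (0.0642), Bgn (0.1) and Thbs2 (0.136) were lost under that setting.

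The smooth muscle and pericyte genes of the line moved as well. Of 6 tested, Acta2, Tagln and Pdgfrb rose with interleukin (1.99-fold, 2.95-fold and 1.47-fold, adjusted p = 0.00305, 0.00892 and 0.00327) and Foxd1 fell by 0.60 (log2, adjusted p = 0.0257), and with hydrogen peroxide Foxd1 fell by 0.98 and the other 5 did not pass. Markers of other cell types were measured because such cells also make these proteases. Of 8 leukocyte and macrophage markers on the array 3 were tested, and Cd14 and Cd68 rose with interleukin (1.87-fold and 2.38-fold, adjusted p = 0.0013 and 0.00851) and Cd68 rose with hydrogen peroxide, while the summed signal of the 8 was 3894 to 3912 with vehicle, 4552 to 4709 with hydrogen peroxide and 6572 to 7335 with interleukin. The defining leukocyte marker Ptprc was below the filter at 21.3 to 125.7, as were Itgam at 13.8 to 86.5 and Adgre1 at 101.3 to 253.0. Of 7 endothelial markers Kdr and Egfl7 were tested, Kdr fell by 0.60 with interleukin (log2, adjusted p = 0.0194) and Egfl7 did not pass, limma called 0 with hydrogen peroxide (2 at an unadjusted p below 0.05), Pecam1 was at 12 to 48.7, and the sums were 13937 to 16328 with vehicle, 11462 to 12349 with hydrogen peroxide and 9033 to 12459 with interleukin. Of 8 epithelial and tubule markers 2 were tested and limma called 0 in each comparison with vehicle (0 and 1 at an unadjusted p below 0.05), with sums of 1010.3 to 1413 over all arrays. The marker genes were tested with all 6 arrays only. The part of other cells in the differences above was not tested.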

How the data were processed

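Per the submitters' processing notes the authors made the deposited values with MAS5, 1 linear signal intensity per probe set and array. Its version was not given in the sources used here. All values were above 0. The log2 of each signal was taken, with nothing added. After removal of 64 control probe sets from 45101, the 22519 whose mean log2 signal reached the median were tested. Symbols came from the array annotation, updated by gene identifier through a RefSeq table (34741 of 34945 probe sets with 1 symbol matched, 932 had several and 9160 none). All 79 members kept their symbol.

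One model over the 6 arrays was fitted with limma's lmFit and a signal-dependent eBayes prior (version 3.58.1, R 4.3.3), and p-values were adjusted by Benjamini-Hochberg over the tested probe sets, with a threshold of 0.05. On data simulated with the spread of the 6 arrays, with 22519 probe sets, 4, 28, 41 and 43 of 50 probe sets changed by log2 0.5, 1, 2 and 3 were recovered, with 4 false calls. Far fewer probe sets were changed there than the 3627 called for interleukin against vehicle, so these rates do not give the recovery in that comparison. Precision is limited by having 2 arrays in each group. P-values rest on a spread between separate cultures that is drawn in part from other probe sets of like signal. The prior from these had a median of 7.47 degrees of freedom, against 3 residual ones of the probe set itself.

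The members and gene lists were chosen with earlier results of these data known. Values on every array were given for tested members called in at least 1 comparison and for TIMPs and Reck, and list genes were up to 4 called genes of smallest p per list and comparison with vehicle, each by its probe set of highest mean signal. Some list genes and family members are not analysed here. Alternatives were quantile normalization, 75th percentile centring, a pseudocount of 32, other filters, no trend, 4 arrays only, a replicate block, no probe sets ending in _s_at or _x_at, and leaving out each array.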

Additional observations from a re-analysis of the deposited data

How the results depend on the processing

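The number of called members moved by less than 1.5 times under quantile normalization, 75th percentile centring, a pseudocount of 32, 4 arrays only and without probe sets ending in _s_at or _x_at. With no trend on signal it was 10 for interleukin against vehicle (16 as reported) and 0 for hydrogen peroxide (11 as reported), and all probe sets called were 1783, 57 and 716 (3627, 1282 and 1987 as reported, the last for interleukin against hydrogen peroxide). With no filter on signal hydrogen peroxide gave 7 members and 762 of all probe sets. With the stricter filter, which tested 21 members, interleukin against hydrogen peroxide gave 5 (8 as reported). On leaving out each array, members called ranged from 10 to 15, 2 to 11 and 5 to 9 in the 3 comparisons in this order, and all probe sets from 1554 to 3583, 235 to 1751 and 839 to 1919. The lowest counts of all probe sets came without vehicle array 1 (1554 and 235) and without hydrogen peroxide array 2 (839). A group reduced to 1 array is assumed to vary like the others.

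The replicate numbers pair no arrays that the labels name as paired. Deviations of same-numbered arrays correlated at 0.107, 0.0535 and -0.129. With the replicate block 16, 11 and 7 members were called (3342, 1170 and 1756 of all probe sets). Of the called members, 8 of 16, 0 of 11 and 5 of 8 kept their call in all of their alternatives, and no named gene reversed direction where it was called.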
